A study of Mus musculus with 6 samples.

Results

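The SLAM family (signalling lymphocytic activation molecules) was followed in the RNA of bone marrow-derived macrophages (BMDMs) that had been cultured together with neutrophils from the injured spinal cord. The members were the 8 genes named *Slamf1*, *Slamf6*, *Slamf7*, *Slamf8*, *Slamf9*, *Cd48*, *Cd84* and *Ly9*, picked by symbol out of 55335 mouse genes listed. They were chosen with earlier results of these data known. Of the 8 members, 6 were tested, because *Slamf1* and *Slamf6* had a mean level over all libraries below 0.5 FPKM (fragments per kilobase, relative to each library's total). The study asked how neutrophils with or without CD177, a neutrophil surface protein, affect macrophages after spinal cord injury (SCI). BMDMs grown from marrow of *Cd177* WT mice with M-CSF were kept for 24 h in direct contact with neutrophils isolated from the lesion at 3 dpi (days post injury). The neutrophils came from *Cd177* WT mice in 3 libraries and from *Cd177* KO mice in the other 3, so the macrophages of both groups carried the wild-type gene. Ly6G-negative cells were then sorted for RNA-seq. The methods describe male mice, C57BL/6 adults of 8 weeks for the wild type and a commercial germline *Cd177* knockout strain. No source used here says whether the 3 libraries of a group came from separate cultures or animals, so p-values measure only the spread between these libraries.

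*Cd177* itself was listed at 0.544, 0.309 and 0.521 FPKM in WT libraries 1 to 3 and at 1.79, 1.84 and 2.28 FPKM in KO libraries 1 to 3. It was thus higher in the libraries labelled KO (log2 fold change 1.37, limma adjusted p = 0.000827), against the direction of the labels, although the sequenced cells should be wild type in both groups. WT and KO below stand for the libraries labelled so, and every direction rests on those labels. Macrophage genes were abundant in all 6 libraries: *Csf1r*, the M-CSF receptor, averaged 263 FPKM in WT and 283 FPKM in KO, and *Adgre1*, a classic macrophage surface marker, averaged 241 FPKM in WT and 297 FPKM in KO. Of 10 macrophage markers, all tested, 2 were higher and 2 lower in KO, the latter being *Fcgr1* and *Cd14*. *Cd14* averaged 1009.5 FPKM in WT and 99.4 FPKM in KO (log2 fold change -3.33, limma adjusted p = 6.82e-06). *Fcgr1* averaged 121 FPKM in WT and 33.8 FPKM in KO (-1.83, limma adjusted p = 7.16e-06). The higher calls were less stable: that of *Adgre1* was lost with either other scaling, with no filter, with robust eBayes and without any 1 library other than WT library 3 (limma adjusted p between 0.0517 and 0.516), and that of *Mertk* with the median-of-ratios scaling and without KO library 1 or 2 (between 0.0532 and 0.0621). The median log2 fold change over all 13367 tested genes was 0.19, so a gene at 0 moved down relative to most.

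SLAM receptors are immunoglobulin-like proteins on the surface of blood cells. Most of them bind the same protein on a neighbouring cell, and tyrosines in their tails recruit small adaptors, SAP and EAT-2, that link them to kinases or keep phosphatases away. *Cd48* and *Slamf8* stand apart in that CD48 is held in the membrane by a lipid anchor and acts as ligand of CD244 and CD2, whereas SLAMF8, like SLAMF9, has a short tail without these adaptor sites. On macrophages the family is known for adhesion between leukocytes, for phagocytosis, and for control of the oxidase that makes reactive oxygen.

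The family split in the comparison of KO with WT. *Slamf8* and *Slamf7* fell, *Cd48*, *Cd84* and *Slamf9* rose, and *Ly9* did not pass the threshold. By limma with an adjusted p under 0.05 over all genes tested, 5 of the 6 tested members were called, against 37.6% of all tested genes. Of all calls, 72% were higher in KO, a split that was 63.6% and 49.3% higher under 2 other ways of scaling the libraries, by the upper quartile and by the median of gene ratios. The 3 that rose stand beside a background of 27.1% of tested genes higher, and the 2 that fell beside 10.5% lower. The median log2 fold change of the 6 was 0.15, close to the median of all genes. It lies in the gap between *Ly9* (-0.30) and *Cd84* (0.60), so it describes no single member. The study's own cut-off was more than a 2-fold change at a p under 0.05 from DESeq2. Applied here to the limma fit, at an unadjusted p under 0.05, it called 3 members, against 11.1% of tested genes. They were *Cd48*, higher, beside 6.68% of genes, and *Slamf7* and *Slamf8*, lower, beside 4.43%. The 3 libraries of one group lay wholly outside the range of the other in 5 of the 6, which held for 51.9% of tested genes, 37.5% with KO above and 14.4% with KO below.

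**Figure D1:**
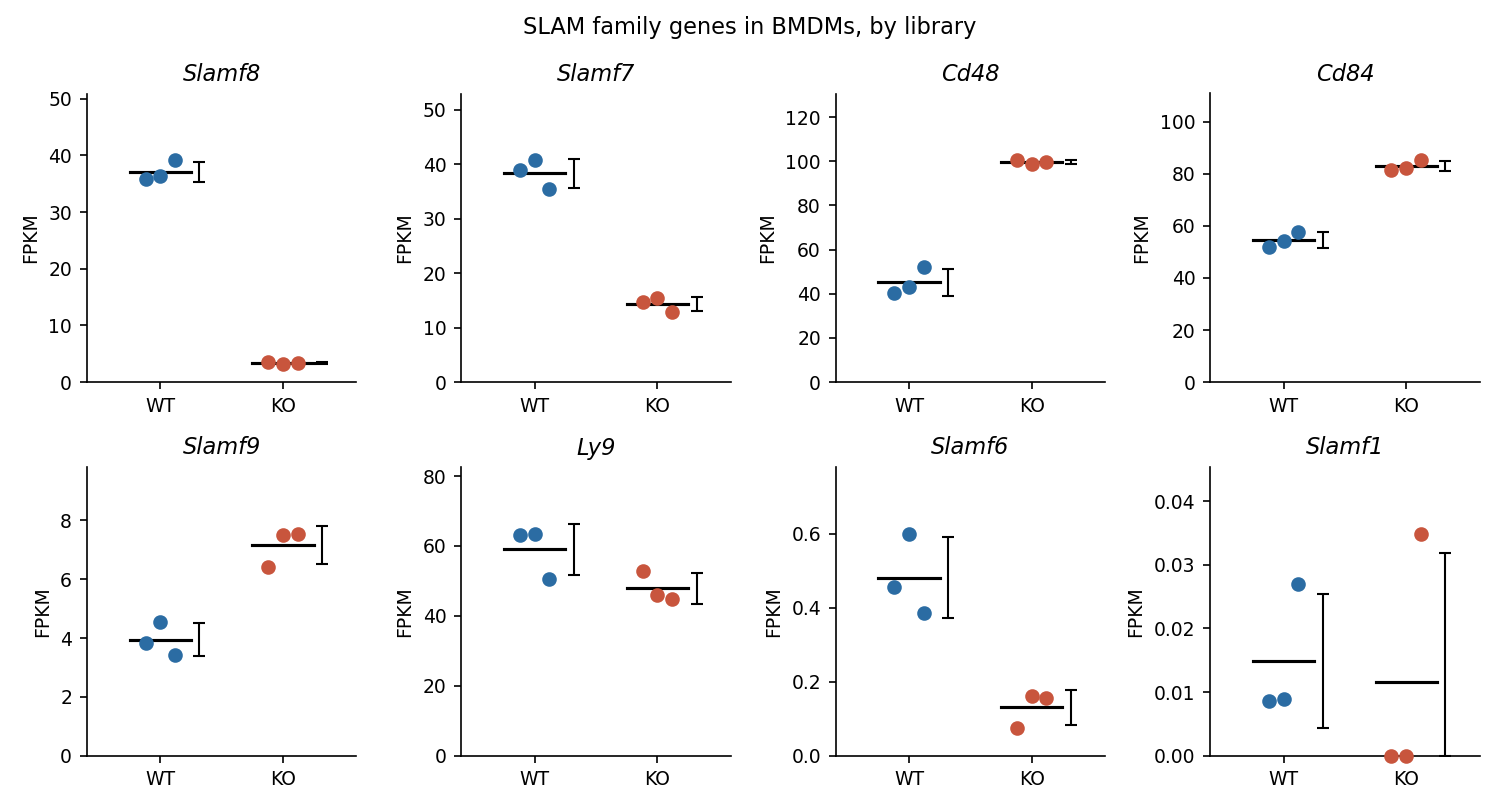
Level of each of the 8 members in FPKM, on axes that start at 0, in the 3 libraries labelled WT and the 3 labelled KO, with 1 point per library, a line at the group mean and an error bar of 1 SD (cut at 0). *Slamf8* drops from 35.9 to 39.1 FPKM in WT to 3.29 to 3.54 FPKM in KO, *Cd48* rises from 40.5 to 52.0 FPKM to 98.7 to 100.5 FPKM, and the groups overlap for *Ly9* and *Slamf1*.

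*Slamf8* changed most. This receptor of macrophages and other phagocytes is known to hold back the NADPH oxidase and cell migration. Its level was 35.9, 36.4 and 39.1 FPKM in WT libraries 1 to 3 and 3.54, 3.29 and 3.36 FPKM in KO libraries 1 to 3. The 3 KO libraries thus lay near each other and far below the lowest WT library. The mean went from 37.1 ± 1.77 FPKM (SD, n = 3) to 3.40 ± 0.131 FPKM (SD, n = 3), 10.9-fold lower, with a log2 fold change of -3.27 on the log2(FPKM + 0.5) scale (SE 0.08, 95% interval -3.47 to -3.08, limma adjusted p = 1.86e-06). Counted from the largest fall, *Slamf8* was number 68 of 13367 genes. In WT its level exceeded that of 90.8% of tested genes, and in KO that of 36.7%. In bulk RNA, fewer cells that express a gene and less of its RNA per cell cannot be told apart, for this member and all others.

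*Slamf8* (ENSMUSG00000053318) lies on the reverse strand at chr1:172581758-172590568 (GRCm38). *Slamf9* (ENSMUSG00000026548), the member nearest to it, lies on the forward strand at chr1:172475358-172478575. The pair moved in opposite directions, so their promoters are shown together, each from 250 bases before to 50 bases after the RefSeq start (GRCm38.p6), written 5′ to 3′ along the gene. The *Slamf8* window is chr1:172590519-172590818, reverse strand, and the *Slamf9* window is chr1:172475110-172475409, forward strand. Capitals mark a match to the core of the interferon-stimulated response element, searched on both strands as GAAA, any pair of bases, and GAAA again.
Slamf8: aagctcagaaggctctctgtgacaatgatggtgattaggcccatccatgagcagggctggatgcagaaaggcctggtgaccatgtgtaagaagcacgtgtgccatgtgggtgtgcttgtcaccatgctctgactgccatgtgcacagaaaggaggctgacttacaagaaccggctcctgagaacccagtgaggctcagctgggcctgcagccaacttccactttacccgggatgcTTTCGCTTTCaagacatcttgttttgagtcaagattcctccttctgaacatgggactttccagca
Slamf9: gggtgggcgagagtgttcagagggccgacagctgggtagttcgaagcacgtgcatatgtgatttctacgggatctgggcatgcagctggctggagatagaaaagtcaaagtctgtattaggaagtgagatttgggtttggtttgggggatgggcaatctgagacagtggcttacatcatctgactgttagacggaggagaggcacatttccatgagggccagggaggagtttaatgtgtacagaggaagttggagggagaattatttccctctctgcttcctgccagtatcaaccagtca
The match in *Slamf8* is on the opposite strand, where it reads TTTCGCTTTC along the gene, and runs from 15 to 6 bases before the start. Among the 7 members with an entry in the promoter table it was the only match. This core occurred in 1131 of 32851 mouse promoters of that length (3.44%). A second pattern, the STAT site TTCNNNGAA on both strands, was found in none of the 7 windows and in 8.3% of all promoters. Such matches are letters in a window, and factor binding was not measured.

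*Slamf9* encodes a receptor of macrophages and dendritic cells whose ligand is not established. Its values were 3.85, 4.55 and 3.43 FPKM in WT libraries 1 to 3 and 6.42, 7.50 and 7.55 FPKM in KO libraries 1 to 3. All 3 KO libraries were above all 3 WT libraries. The mean rose from 3.94 ± 0.568 to 7.16 ± 0.641 FPKM (SD, n = 3 each), 1.81-fold, with a log2 fold change of 0.79 (SE 0.13, 95% interval 0.49 to 1.09, limma adjusted p = 0.00337). It therefore missed the study's cut-off of a fold change above 2.

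*Slamf7* was the second member that fell. SLAMF7, also called CRACC or CD319, binds itself across cells and is known to promote phagocytosis of blood-derived target cells by macrophages. Its level was 38.9, 40.8 and 35.5 FPKM in WT libraries 1 to 3 and 14.7, 15.5 and 12.9 FPKM in KO libraries 1 to 3. The highest KO library stayed below the lowest WT library by a wide margin. The mean went from 38.4 ± 2.67 to 14.3 ± 1.31 FPKM (SD, n = 3 each), 2.68-fold lower, with a log2 fold change of -1.39 (SE 0.10, 95% interval -1.63 to -1.15, limma adjusted p = 0.000112). Part of its exons, 423 of 4577 bases (9.24%), overlaps the antisense gene *Gm37787* on the other strand. These 423 bases are the larger part of the 585 exon bases of *Gm37787*. *Gm37787* was listed at 10.4, 12.6 and 13.4 FPKM in WT and at 0.637, 1.44 and 2.03 FPKM in KO, a fall in the same direction (log2 fold change -2.83, limma adjusted p = 0.000456). Whether fragments were counted by strand is not given in the sources used here, so reads in the shared stretch cannot be assigned, and the value of either gene is uncertain to that extent.

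*Cd48* is the next member along the chromosome from *Slamf7* and moved the other way. CD48 is the ligand through which leukocytes engage CD244, and it is also known as a receptor for bacterial fimbriae. Its level was 40.5, 42.9 and 52.0 FPKM in WT libraries 1 to 3 and 100.5, 98.7 and 99.8 FPKM in KO libraries 1 to 3. WT library 3 was the highest of its group and still far below the lowest KO library. The mean rose from 45.1 ± 6.10 to 99.7 ± 0.907 FPKM (SD, n = 3 each), 2.21-fold, with a log2 fold change of 1.14 (SE 0.11, 95% interval 0.89 to 1.40, limma adjusted p = 0.000345). After rescaling the libraries by the median of gene ratios the log2 fold change was 0.93 (limma adjusted p = 0.00127), still called but below a fold change of 2, so that no member then met the study's cut-off in the upward direction.

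*Slamf7* (ENSMUSG00000038179) spans chr1:171632403-171653035 on the reverse strand, and *Cd48* (ENSMUSG00000015355) spans chr1:171682009-171705258 on the forward strand, with 29.0 kb between them. They are transcribed away from each other, and their promoter windows are shown because these neighbours changed in opposite directions. The *Slamf7* window is chr1:171648950-171649249, reverse strand, which starts within the span given to the gene in GENCODE, and the *Cd48* window is chr1:171681742-171682041, forward strand (both GRCm38.p6). Neither holds a match to the searched patterns, so no base is in capitals.
Slamf7: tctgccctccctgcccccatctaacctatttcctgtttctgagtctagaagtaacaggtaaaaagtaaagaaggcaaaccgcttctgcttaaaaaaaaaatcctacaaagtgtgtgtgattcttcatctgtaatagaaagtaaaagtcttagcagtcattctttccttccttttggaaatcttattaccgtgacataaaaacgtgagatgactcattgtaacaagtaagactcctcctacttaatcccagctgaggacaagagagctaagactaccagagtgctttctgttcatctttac
Cd48: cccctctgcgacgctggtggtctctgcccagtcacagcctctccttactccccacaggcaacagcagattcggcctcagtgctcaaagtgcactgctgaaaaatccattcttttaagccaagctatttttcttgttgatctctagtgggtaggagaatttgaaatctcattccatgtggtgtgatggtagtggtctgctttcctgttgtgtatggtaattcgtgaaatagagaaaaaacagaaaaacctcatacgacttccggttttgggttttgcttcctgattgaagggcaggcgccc
The GC content was 39% in the *Slamf7* window and 47.3% in the *Cd48* window. It was 52.3% for *Slamf8* and 50.3% for *Slamf9*, and the median over all promoters was 52.7%.

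*Cd84* rose less than *Cd48* but with little spread. CD84 (SLAMF5) binds itself between cells and can recruit both SAP and EAT-2. Its level was 51.7, 54.3 and 57.7 FPKM in WT libraries 1 to 3 and 81.6, 82.2 and 85.2 FPKM in KO libraries 1 to 3. The groups did not overlap. The mean rose from 54.6 ± 3.00 to 83.0 ± 1.94 FPKM (SD, n = 3 each), 1.52-fold, with a log2 fold change of 0.60 (SE 0.08, 95% interval 0.42 to 0.79, limma adjusted p = 0.0013). With the median-of-ratios scaling it was 0.39, still called (limma adjusted p = 0.0132).

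*Ly9* was the only tested member that was not called. LY9 (SLAMF3, CD229) is another self-ligand of the family, best known from T and B cells. Its level was 63.1, 63.5 and 50.6 FPKM in WT libraries 1 to 3 and 52.9, 45.8 and 44.8 FPKM in KO libraries 1 to 3. KO library 1 lay above WT library 3, so the groups overlapped. The mean was 59.1 ± 7.33 FPKM in WT and 47.8 ± 4.40 FPKM in KO (SD, n = 3 each), and the log2 fold change was -0.30 (SE 0.12, 95% interval -0.58 to -0.01, limma unadjusted p = 0.0434, adjusted p = 0.0947). WT library 3 made this fall smaller. Without that library the log2 fold change was -0.40 and the gene was called lower (limma adjusted p = 0.0140). It was also called lower with the median-of-ratios scaling, at -0.51 (limma adjusted p = 0.0146). *Ly9* lies within the span of *Cd244a* on the opposite strand, and the 2 genes share no exon bases.

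*Slamf6* and *Slamf1* were near the bottom of what these libraries could measure. SLAMF6 (Ly108) and SLAMF1 (CD150) are self-ligands best known from lymphocytes, and SLAMF1 also acts in macrophages as a sensor of Gram-negative bacteria. *Slamf6* was listed at 0.456, 0.600 and 0.386 FPKM in WT and at 0.0746, 0.161 and 0.155 FPKM in KO. Every KO library was below every WT library, and when all genes listed above 0 were tested the log2 fold change was -0.64 (SE 0.12, limma adjusted p = 0.0187). *Slamf1* was listed at 0.00852, 0.00895 and 0.0270 FPKM in WT and at 0, 0 and 0.0349 FPKM in KO, with overlapping groups. Tested the same way, it gave a log2 fold change of -0.01 (limma adjusted p = 0.889), and a difference was not detectable at this depth. *Slamf1* spans chr1:171767127-171801184, *Cd84* (ENSMUSG00000038147) chr1:171839697-171890718 and *Slamf6* (ENSMUSG00000015314) chr1:171917515-171953170, all on the forward strand. *Ly9* (ENSMUSG00000004707) spans chr1:171588624-171607410 on the reverse strand.

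**Figure D2:**
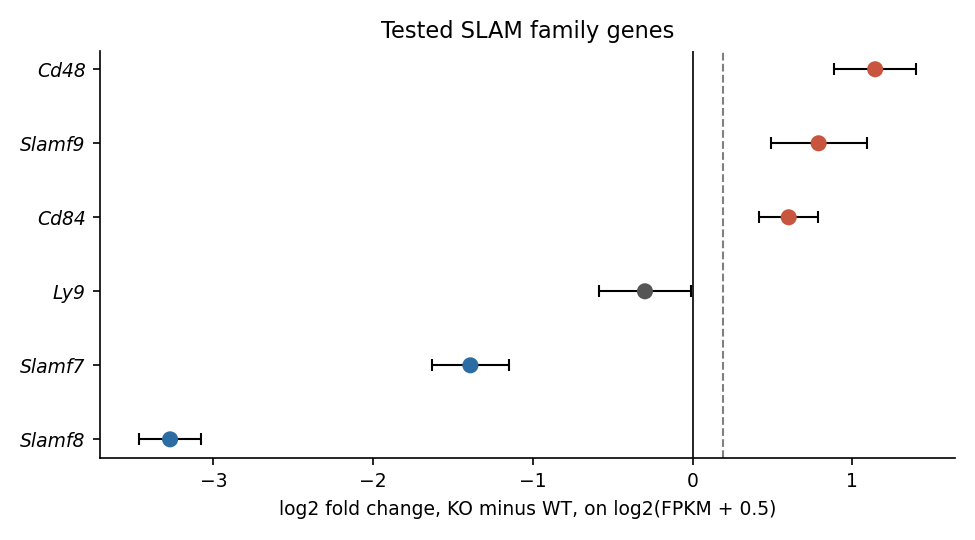
Log2 fold change, KO minus WT, of the 6 tested members with 95% intervals from limma. The dashed line marks the median of all tested genes, 0.19; *Slamf8* (-3.27) and *Slamf7* (-1.39) lie to its left, *Cd84* (0.60), *Slamf9* (0.79) and *Cd48* (1.14) to its right, and the interval of *Ly9* runs from -0.58 to -0.01.

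FPKM is scaled by gene length, so levels of different members can be set side by side. In WT the order by mean was *Ly9*, *Cd84*, *Cd48*, *Slamf7*, *Slamf8*, *Slamf9*, *Slamf6* and *Slamf1*. Each of the first 4 overlapped the next in its range over libraries, so the first 5 had no clear order from one to the next. *Slamf9* stood well below them and *Slamf6* and *Slamf1* lower still. In KO the order was *Cd48*, *Cd84*, *Ly9*, *Slamf7*, *Slamf9*, *Slamf8*, *Slamf6* and *Slamf1*, and no neighbouring pair overlapped. *Cd48* went from the third place to the first, and *Slamf8* and *Slamf9* exchanged places.

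The summed level of the 8 members changed far less than the members did. It was 234, 243 and 239 FPKM in WT libraries 1 to 3 and 260, 253 and 254 FPKM in KO libraries 1 to 3. The KO mean of 255.5 ± 3.59 FPKM was 107% of the WT mean of 238.7 ± 4.35 FPKM (SD, n = 3 each), with p = 0.1 in a two-sided exact permutation test, the smallest value that 3 libraries against 3 allow. Within this sum, *Cd48* supplied 18.9 ± 2.51% in WT and 39.0 ± 0.314% in KO. *Cd84* supplied 22.9 ± 1.13% and 32.5 ± 1.08%. Both shares grew without overlap between groups. *Ly9* supplied 24.8 ± 3.11% in WT and 18.7 ± 1.46% in KO. *Slamf7* went from 16.1 ± 1.05% to 5.61 ± 0.514%. *Slamf8* went from 15.6 ± 0.745% to 1.33 ± 0.0331% (SD, n = 3 each throughout). Parts of a fixed whole are tied to each other, so a larger share of one member lowers the others by itself.

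**Figure D3:**
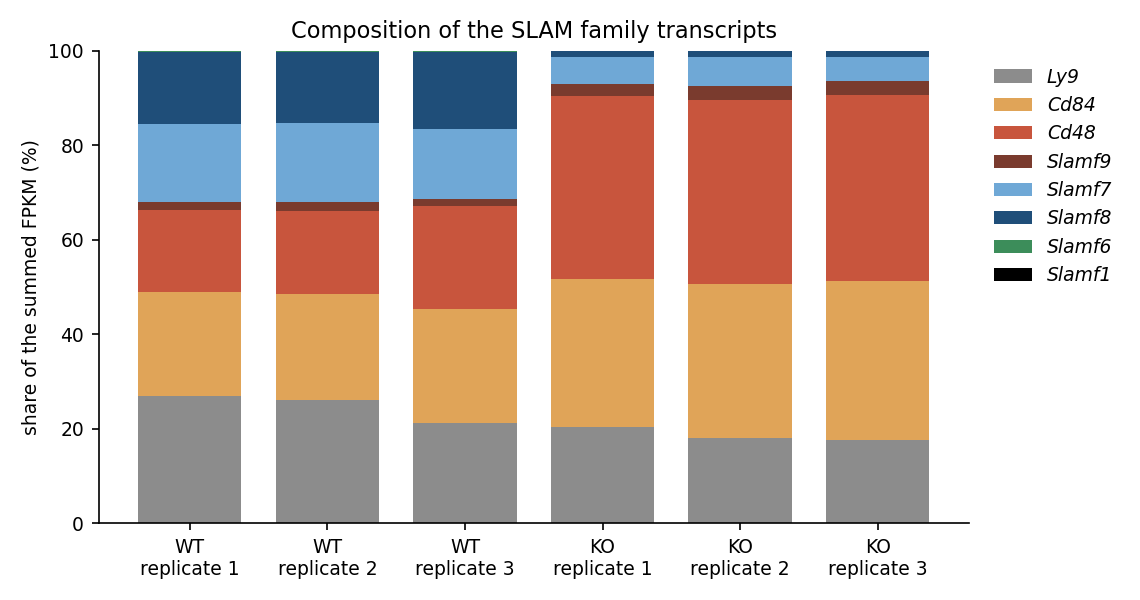
Share of each member, in percent, in the summed FPKM of the 8 members, as 1 stacked bar starting at 0 for each library. In KO, *Cd48* and *Cd84* supply 39.0% and 32.5% on average and *Slamf8* 1.33%, whereas in WT the 5 most abundant members supply between 15.6% and 24.8% each.

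Ratios of 2 members within a library do not depend on how libraries are scaled to each other. *Cd48* and *Slamf8* were near parity in WT, with ratios of 1.13, 1.18 and 1.33, and far apart in KO, with 28.4, 30.0 and 29.7. That is a change of 24.3-fold, again at the smallest possible p = 0.1 of the two-sided exact permutation test. The ratio of *Slamf9* to *Slamf8* was 0.107, 0.125 and 0.0876 in WT and 1.81, 2.28 and 2.25 in KO. *Slamf9*, a minor transcript beside *Slamf8* in WT, was thus the more abundant of this pair in every KO library. For the neighbours *Cd48* and *Slamf7* the ratio was 1.04, 1.05 and 1.47 in WT and 6.85, 6.39 and 7.75 in KO. The ratio of *Cd84* to *Ly9* moved less, from 0.819, 0.855 and 1.14 to 1.54, 1.79 and 1.90. None of these 4 ratios overlapped between groups, and each had p = 0.1 in the same exact permutation test. Each pair set a member that rose over a member with a lower mean in KO. Their separation therefore follows from the changes of the single members and is no further evidence for them.

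All members lie on chromosome 1, in 2 runs. The first holds *Ly9*, *Slamf7*, *Cd48*, *Slamf1*, *Cd84* and *Slamf6* within 365 kb, at chr1:171588624-171953170, with 25.0 to 61.9 kb between one gene and the next. The second, 522 kb further, holds *Slamf9* and *Slamf8* within 115 kb. Directions were mixed along the chromosome. *Slamf7* fell between *Ly9*, not called, and *Cd48*, which rose, and in the second run *Slamf9* rose and *Slamf8* fell. Of the other protein-coding genes between the outermost members of each run or within 250 kb of them, 33 in all, 21 were tested, 7 were higher and 1 was lower in KO, against 27.1% higher and 10.5% lower among all tested genes. Their log2 fold changes had a median of 0.28, beside 0.19 over all genes.

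Among these neighbours the called genes with the largest rises were *Kcnj10*, *Gm10521*, *Alyref2* and *Pea15a*. *Kcnj10*, a potassium channel gene before the second run, rose from 0.808 ± 0.236 to 2.47 ± 0.284 FPKM (log2 fold change 1.20, limma adjusted p = 0.00198). *Pea15a*, which encodes a death effector domain protein and lies between the runs, rose from 41.5 ± 2.23 to 74.9 ± 3.24 FPKM (0.84, limma adjusted p = 0.000362). *Alyref2* rose from 1.12 ± 0.205 to 2.47 ± 0.200 FPKM (0.88, limma adjusted p = 0.00294). *Gm10521* went from 4.97 ± 2.05 to 10.2 ± 2.24 FPKM (1.03, limma adjusted p = 0.0437). That call was lost with either other scaling of the libraries, with no filter, and without any one of WT library 1 and KO libraries 1 and 2 (limma adjusted p between 0.0615 and 0.129). *Igsf8*, an immunoglobulin-like partner of tetraspanins, fell from 26.6 ± 1.12 to 20.6 ± 3.21 FPKM (-0.37, limma adjusted p = 0.0477; all SD, n = 3 each). It was the only neighbour called lower, a call lost without any one of WT libraries 1 and 2 and KO libraries 1 and 2 (limma adjusted p between 0.112 and 0.158), with the replicate block (0.0522) and with no filter (0.0879). Under the median-of-ratios scaling 4 neighbours were called lower. No tested neighbour fell as far as *Slamf7* or *Slamf8*.

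**Figure D4:**
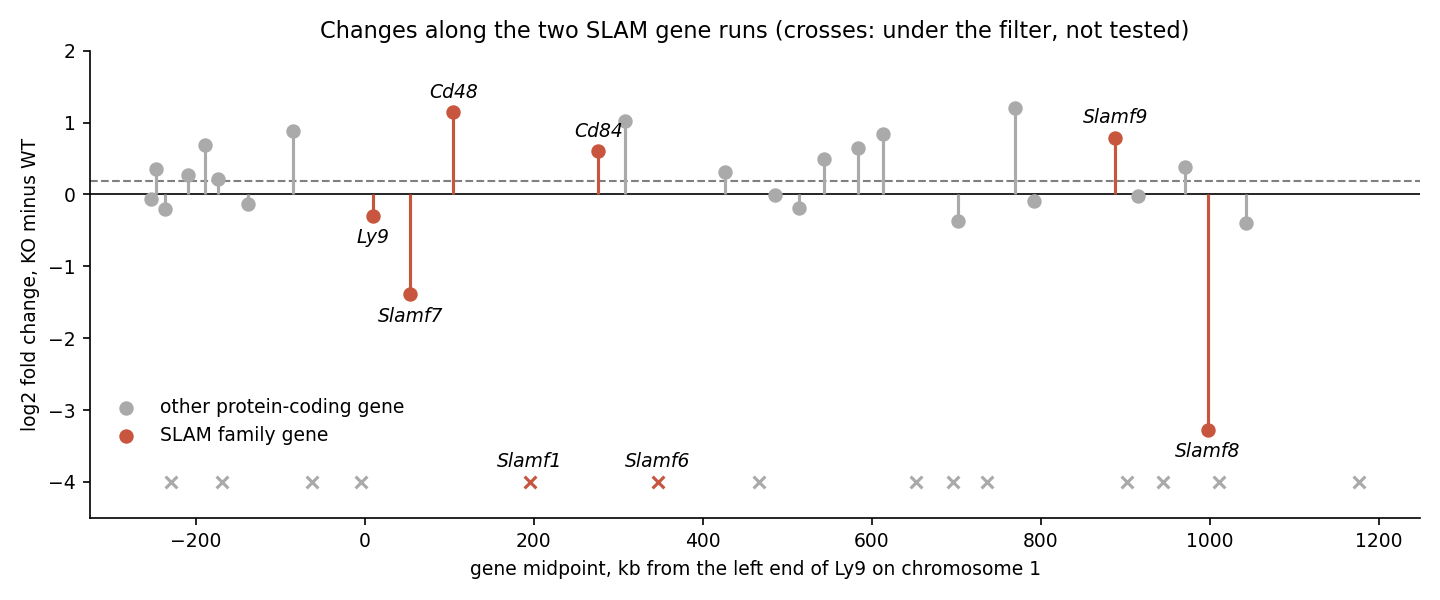
Log2 fold change, KO minus WT, of members and other tested protein-coding genes by distance of the gene's midpoint in kb from the left end of *Ly9* on chromosome 1. Crosses at the bottom mark genes below the level tested, and the dashed line the median of all tested genes. *Cd244a*, a SLAM family gene outside the members, is drawn with the other genes. *Slamf8* (-3.27) and *Slamf7* (-1.39) lie below every neighbour plotted, whose called values run from -0.37 (*Igsf8*) to 1.20 (*Kcnj10*).

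The proteins that work with SLAM receptors were followed in a list of 30 genes. Of these, 24 were tested, 10 were higher in KO and 0 were lower at a limma adjusted p under 0.05, against 27.1% higher and 10.5% lower among all tested genes, with a median log2 fold change of 0.28 beside 0.19 over all genes. At an unadjusted p under 0.05, 0 of them were lower. With the median-of-ratios scaling 7 were higher and 2 lower. CD244 and CD2, the partners of CD48, were scarce. *Cd244a* is itself a SLAM family gene, but it is not among the members chosen here and was counted with the chromosome 1 neighbours. *Cd244a* was listed at 0.458, 0.213 and 0.198 FPKM in WT and at 0.599, 0.561 and 0.438 FPKM in KO, with overlapping groups, and *Cd2* was listed at 0 in all 6 libraries.

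Of the 3 adaptor genes only 1 was detected. *Sh2d1b1*, which encodes EAT-2, was at 1.16, 0.899 and 1.38 FPKM in WT and at 3.75, 4.29 and 3.79 FPKM in KO. All KO libraries were above all WT libraries. The mean rose 3.43-fold, from 1.15 ± 0.242 to 3.94 ± 0.303 FPKM (SD, n = 3 each), and its log2 fold change was 1.44 (SE 0.14, limma adjusted p = 0.000399). *Sh2d1a*, which encodes SAP, and *Sh2d1b2*, a near copy of *Sh2d1b1* beside it in the genome, were listed at 0 in every library. How the counting divided reads between the copies *Sh2d1b1* and *Sh2d1b2* is not given in the sources used here, so the level of *Sh2d1b1* is uncertain to that extent.

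Of the 5 kinases tested, *Fyn* and *Csk* were called. *Fyn*, the kinase that SAP brings to SLAM receptors, was at 6.17, 5.55 and 4.99 FPKM in WT and at 12.2, 10.1 and 13.9 FPKM in KO (log2 fold change 1.04, limma adjusted p = 0.00155). Its groups did not overlap, and it rose 2.17-fold. *Csk*, which restrains kinases of the Src family, went from 31.2 to 37.1 FPKM on average (0.25, limma adjusted p = 0.0334). That call was lost with either other scaling and without any 1 library other than WT library 3 (limma adjusted p between 0.0694 and 0.764). *Lyn* and *Fgr*, Src kinases of myeloid cells, did not pass the test, and *Lck* was below the level tested.

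Of the 4 phosphatases, 3 rose. *Ptpn6*, which encodes SHP-1, averaged 42.2 FPKM in WT and 67.4 FPKM in KO (log2 fold change 0.67, limma adjusted p = 0.00134). *Inpp5d*, which encodes the lipid phosphatase SHIP-1, averaged 19.7 and 34.3 FPKM (0.80, limma adjusted p = 0.0128). *Ptprc*, which encodes CD45, averaged 12.2 and 20.2 FPKM (0.70, limma adjusted p = 0.0079). *Ptpn11*, which encodes SHP-2, was not called. Of 6 effectors tested, the inhibitory adaptors *Dok2* and *Dok1* rose, *Dok2* from 10.1 to 18.3 FPKM (0.82, limma adjusted p = 0.00143) and *Dok1* from 30.3 to 41.5 FPKM (0.45, limma adjusted p = 0.00626). The call of *Dok1* was lost with the median-of-ratios scaling.

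SLAMF1 is known to work in phagosomes with the Vps34 lipid kinase. *Pik3c3*, which encodes Vps34, rose from 5.88 to 9.46 FPKM on average (log2 fold change 0.64, limma adjusted p = 0.00156), whereas its partners *Becn1* and *Uvrag* were not called. SLAMF7 is known to act in phagocytosis with the integrin Mac-1 and with chains that carry activating motifs. *Tyrobp*, which encodes one such chain, DAP12, averaged 570 FPKM in WT and 771 FPKM in KO (0.44, limma adjusted p = 0.0211). That call was lost with either other scaling, with no filter, and without any one of WT libraries 1 and 2 and KO libraries 1 and 2 (limma adjusted p between 0.05175 and 0.199). *Itgam*, *Itgb2*, *Fcer1g* and the kinase *Syk* were not called. *Syk* had a log2 fold change of -0.38 (limma adjusted p = 0.12). It was called lower with the median-of-ratios scaling, at -0.60 (limma adjusted p = 0.0297), and without WT library 3, at -0.57 (limma adjusted p = 0.00651). The replicate number as a block also gave a lower call, at -0.38 (limma adjusted p = 0.0211).

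**Figure D5:**
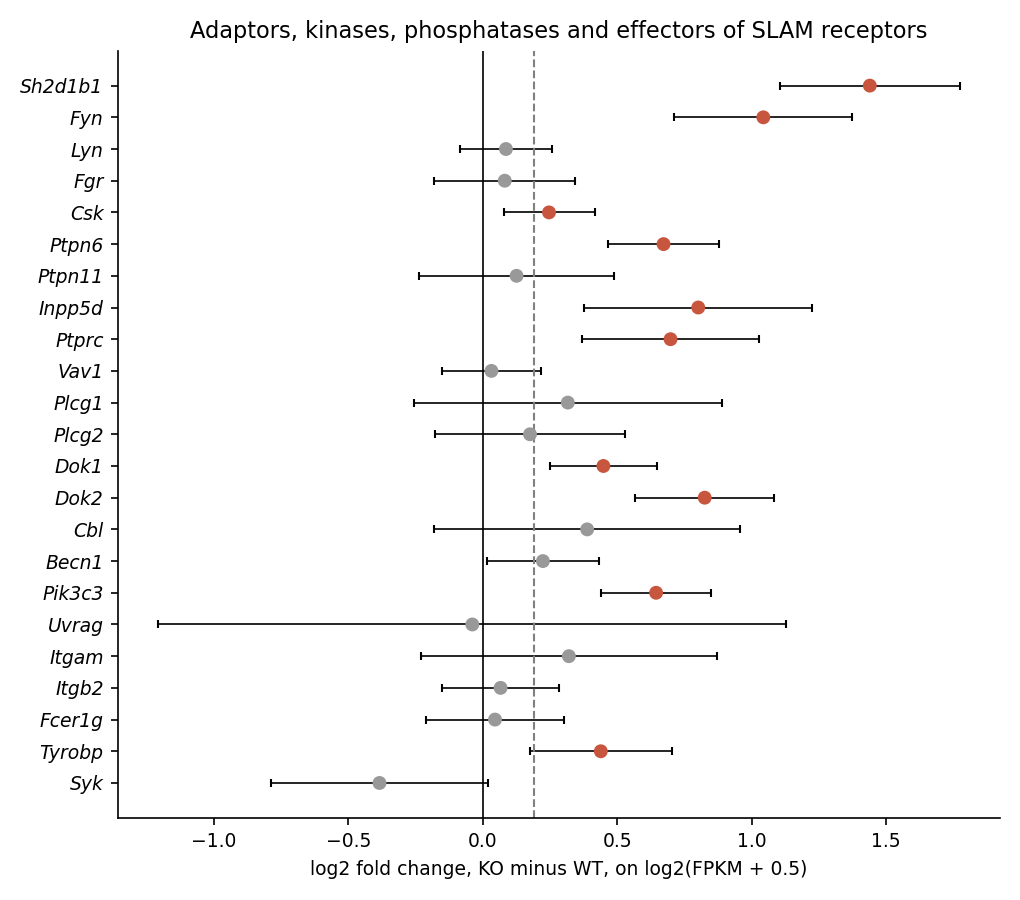
Log2 fold change, KO minus WT, of tested genes of the list of SLAM partners, ordered by role, with 95% intervals from limma and called genes in red. *Sh2d1b1* (1.44) and *Fyn* (1.04) lie farthest right of the dashed median of all tested genes at 0.19, and no gene is called lower on this scale.

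Likeness of pattern was measured as the root mean square difference between profiles of log2(FPKM + 0.5) over the 6 libraries, each centred on its own mean, among 10196 other protein-coding genes. It is a description over 6 points in 2 groups, so it mostly ranks genes by the size of their change. The genes most like *Slamf8* were *Gbp5* (difference 0.096), *Igtp* (0.097) and *Tgtp1* (0.099), all GTPases known as interferon-induced. *Igtp* averaged 51.1 FPKM in WT and 5.53 FPKM in KO. The genes most like *Slamf7* were *Srpx2* (0.023), *Ddx60* (0.029) and *Lgals3bp* (0.067), of which *Lgals3bp* went from 219.8 to 81.0 FPKM on average. *Cd48* was followed most closely by *Nuf2*, *Eif5a2* and *Chst1*, *Cd84* by *Slc25a13*, *Exoc3* and *Pltp*, *Slamf9* by *Ercc6l*, *Mctp1* and *Tbc1d14*, and *Ly9* by *Rabgef1*, *Cables2* and *Sel1l3*. These 12 differences lay between 0.035 and 0.056.

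Members of the family are made by many leukocytes, so markers of other cells were read beside the rise of *Cd48*, *Cd84*, *Slamf9* and *Sh2d1b1*. Of 12 neutrophil markers, 9 were tested, 8 were higher and 1, *Mmp8*, was lower in KO. Their summed level was 186 to 247 FPKM in WT and 525 to 537 FPKM in KO, although the cells had been sorted as Ly6G-negative. *Ly6g* was listed at 0 in all WT libraries and at 0.660, 0.547 and 0.403 FPKM in KO. Of 10 B cell markers, 4 were tested and 3 were higher, with sums of 5.59 to 7.39 FPKM in WT and 20.0 to 21.0 FPKM in KO. The rise included *Ighm*, whereas *Cd79a* was at 0 in WT and at most at 0.0519 FPKM in KO, and *Ighd* and *Blk* were at 0 throughout. Of 10 T cell markers, *Cd4* and *Cd28* were tested and both were higher, with sums of 3.75 to 4.28 FPKM in WT and 13.5 to 15.7 FPKM in KO, while *Cd3e* stayed at or below 0.0321 FPKM and *Cd3d* at 0. The part of neutrophil and lymphocyte RNA in the rise of these members was not tested.

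No gene of the NK cell list was tested, with sums of 0.127 to 0.148 FPKM in WT and 0.108 to 0.160 FPKM in KO, and *Ncr1* at 0 in all KO libraries. Plasmacytoid dendritic cell markers summed to 10.9 to 14.7 FPKM in WT and 13.6 to 23.7 FPKM in KO, with 0 of 2 tested genes called and *Siglech* at or near 0. Most of this sum came from a single gene that was not called. The upper end in KO came from KO library 3 alone. Conventional dendritic cell markers summed to 0.610 to 1.25 FPKM in WT and 0.314 to 0.565 FPKM in KO, and none was tested. *Zbtb46* was higher in every KO library than in any WT library, with means of 0.113 and 0.306 FPKM, whereas *Clec9a* and *Xcr1* were lower in KO. Mast cell and basophil markers summed to 14.9 to 26.8 FPKM in WT and 6.73 to 7.68 FPKM in KO, almost wholly through *Mcpt8*, which was called lower (log2 fold change -1.43, limma adjusted p = 0.00212), with *Fcer1a* and *Ms4a2* at 0. Spinal cord markers summed to 4.60 to 5.93 FPKM in WT and 5.83 to 7.06 FPKM in KO, almost all of it *Mbp*, with *Snap25* and *Aqp4* at 0. The sums of NK cell, plasmacytoid dendritic cell and spinal cord markers overlapped between groups. Those of neutrophil, B cell, T cell, conventional dendritic cell and mast cell or basophil markers did not. The sums that moved did so beside the fall of *Slamf8* and *Slamf7* as well as beside the rises. Their part in that fall was not tested.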

How the data were processed

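The authors deposited FPKM values per gene and library for 55335 mouse Ensembl genes, one column per library, and no columns were left unused. The submitters' processing notes name fastp 0.17.1, HISAT2 2.1.0, DESeq2 1.18.1 and R 3.4.3. The genome build, annotation, quantifier and strand setting are not given in the sources used here. FPKM is scaled to the library total, so large changes in abundant genes shift the others. Column sums were 302532 to 340717, and steps in low values implied 17600000 to 20200000 fragments per library. Only 39.7% to 43.9% of low values lay within 0.1 of whole multiples (20% by chance), so counts were not recovered and no count test was run. A value of 0 is given as listed and not as absence.

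Groups came from the sample labels. Genes averaging at least 0.5 FPKM across the 6 libraries, 13367 in all, entered 1 limma fit (version 3.58.1, R 4.3.3; lmFit, eBayes with trend, two-sided, no covariates) on log2(FPKM + 0.5). Adjustment was by Benjamini-Hochberg over all tested genes. This scale understates changes of low genes. Symbols and positions came from GENCODE M21 (GRCm38), which matched 55154 identifiers (99.7%), and promoters from RefSeq (GRCm38.p6), which had an entry for 7 of the 8 members. Protein sequences were not used here. The members, gene lists and tests were chosen with earlier results of these data known. All members were named, as were genes of the list of SLAM partners, called neighbours (up to 4 each way by size) and the 3 genes nearest in pattern to each tested member. *Gm37787*, *Fcgr1*, *Cd14* and the markers named beyond the defining ones were chosen after their values were seen. Alternatives were other pseudocounts, filters and scalings, robust eBayes, the replicate number as a block and leaving out each library. One gene of that list and 1 marker are counted but not reported here by name. The fit was checked on 8 draws of simulated data for bias and false calls. Python 3.11.15 with pandas 2.3.3, numpy 2.4.6, scipy 1.17.1 and matplotlib 3.10.9 was used for other steps.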

Additional observations from a re-analysis of the deposited data

How the results depend on the processing

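The calls of *Slamf8*, *Slamf7*, *Cd48*, *Cd84* and *Slamf9* kept direction and threshold under all 14 alternatives. Their log2 fold changes ranged from -3.47 to -3.12, -1.60 to -1.32, 0.93 to 1.25, 0.39 to 0.64 and 0.59 to 0.89, with limma adjusted p of at most 0.0188. *Ly9* was called lower with the median-of-ratios scaling (-0.51), with the upper-quartile scaling (-0.39, limma adjusted p = 0.0463) and with the replicate number as a block (-0.30, limma adjusted p = 0.0362). With 1 library left out it ranged from -0.40 to -0.24, called without WT library 3 only, and its limma adjusted p ranged from 0.0140 to 0.236 over all alternatives. The causes were not tested.

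The median log2 fold change of all tested genes was 0.19, against 0.11 with the upper-quartile scaling and -0.00 with the median-of-ratios scaling, where 2156 genes were higher and 2215 lower in place of 3619 and 1408. Calls over all genes ranged from 2420 to 4259 higher and from 1059 to 1707 lower with 1 library left out. In the list of SLAM partners, higher calls ranged from 7 to 11 over all alternatives, and at most 2 genes were lower.

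The replicate numbers are shared between groups, but deviations of same-numbered libraries correlated at 0.116, 0.036 and 0.264, and only WT library 3 correlated best with its own number, so they are not taken to pair the libraries. The block gave 4253 higher and 1681 lower genes. Depth limits *Slamf1* and *Slamf6* most, and no counting interval can be given without counts.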
